A study of Mus musculus with 8 samples.

Results

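The CCN family and the thrombospondins were described here through 10 genes, found by their symbols in the deposited table: Ctgf, Cyr61, Nov, Wisp1 and Wisp2 of the CCN family, and Thbs1, Thbs2, Thbs3, Thbs4 and Comp of the thrombospondins. All 10 were among the 24419 rows, and all 10 passed the filter on low counts that left 13646 genes to be tested. The table uses the older CCN symbols; in RefSeq Ctgf is Ccn2, Cyr61 is Ccn1, Nov is Ccn3, Wisp1 is Ccn4 and Wisp2 is Ccn5. RNA was sequenced from fibroadipogenic progenitors (FAPs), stromal cells of skeletal muscle, freshly sorted from hindlimb muscle; the mice were C57BL/6J males whose ages the labels do not give. In the miR-27a KD group (3 libraries) the pancreas had been injected with KPCY cells, a mouse pancreatic cancer line, into which a lentivirus had brought a miR-27a-3p inhibitor. In the KPC Scr group (3 libraries) the KPCY cells carried a lentiviral scrambled sequence, and in the sham group (2 libraries) mice had sham surgery and no tumour cells. Each tumour group rests on 1 puromycin-selected cell line, and it was the tumour cells, not the FAPs, that received the inhibitor. The sort kept cells with SCA-1 and without CD31, CD45 or α7-integrin that took up Hoechst and excluded propidium iodide. The series asks how these cells differ in a model of pancreatic cancer cachexia and when miR-27a is inhibited in the tumour.

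CCN proteins are matricellular: they are secreted into the matrix, where they bind integrins, proteoglycans and growth factors and alter signalling rather than build fibres. Ctgf and Cyr61 are the textbook target genes of the co-activator YAP and its TEAD DNA-binding partners, are induced by TGF-beta and serum, and accompany fibrosis in muscle. Thrombospondins are secreted calcium-binding glycoproteins; Thbs1 and Thbs2 form trimers that bind CD36 and CD47 and restrain angiogenesis, and Thbs1 can activate latent TGF-beta. Thbs3, Thbs4 and Comp form pentamers and are known from tendon, cartilage and muscle matrix.

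Promoter sequences of 4 of the 10 genes were found (RefSeq, GRCm38.p6, from 250 bases before to 50 after the start site). Those of Cyr61, Thbs2 and Thbs4 are shown because Cyr61 is a textbook TEAD target, Thbs2 was called higher in KPC Scr libraries and Thbs4 lay close to its sham level. Capitals mark each match to the TEAD motif GGAATG on either strand, read as CATTCC on the strand shown. The 3 promoters lie at chr3:145649936-145650235, chr17:14694213-14694512 and chr13:92794769-92795068, all on the minus strand, and are written 5′ to 3′ in the direction of the gene.
Cyr61: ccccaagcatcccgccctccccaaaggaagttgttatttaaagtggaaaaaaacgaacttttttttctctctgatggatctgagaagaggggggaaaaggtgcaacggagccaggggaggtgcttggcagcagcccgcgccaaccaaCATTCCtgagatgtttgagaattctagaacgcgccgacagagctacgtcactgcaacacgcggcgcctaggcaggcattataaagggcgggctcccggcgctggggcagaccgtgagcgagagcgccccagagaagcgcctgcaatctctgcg
Thbs2: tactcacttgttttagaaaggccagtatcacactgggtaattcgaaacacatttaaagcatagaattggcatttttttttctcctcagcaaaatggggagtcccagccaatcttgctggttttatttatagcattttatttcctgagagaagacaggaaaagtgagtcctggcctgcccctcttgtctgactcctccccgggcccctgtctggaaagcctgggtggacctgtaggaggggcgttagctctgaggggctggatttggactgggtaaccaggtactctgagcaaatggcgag
Thbs4: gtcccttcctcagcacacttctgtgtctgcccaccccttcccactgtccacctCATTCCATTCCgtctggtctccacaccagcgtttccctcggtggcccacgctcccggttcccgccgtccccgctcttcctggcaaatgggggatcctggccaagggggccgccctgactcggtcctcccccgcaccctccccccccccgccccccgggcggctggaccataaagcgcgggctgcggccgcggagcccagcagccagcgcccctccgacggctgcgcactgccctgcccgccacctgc
The Cyr61 window held 1 match, whose first base lay 103 bases before the start site, and the Thbs4 window held 2 matches that overlap by 1 base, starting 197 and 192 bases before it. The Thbs2 and Thbs3 windows held 0. Of all 32851 promoters of this length, 14.7% held the motif. The SMAD motif CAGACA, searched on both strands, had 2 matches in the Thbs2 window, 1 in that of Thbs4 and 0 in those of Cyr61 and Thbs3, against 21.0% of all promoters with at least 1. The AP-1 motif TGANTCA and the CArG box bound by serum response factor had no match in the 4 windows; 7.81% and 1.63% of all promoters held them.

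The microRNA inhibited in the tumour cells is shown with its seed, bases 2 to 8, in capitals, and beside it the stretches of the members' 3′ untranslated regions that pair with that seed (ACTGTGA, in capitals, from the longest annotated untranslated region of each gene in GENCODE M21).
miR-27a-3p: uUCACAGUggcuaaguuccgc
Wisp1, site a: ctgttcttgacACTGTGAaatatcaattca
Wisp1, site b: tctattttcaaACTGTGAttgtgtatttaa
Wisp1, on chromosome 15, was the only one of the 10 genes with a match: its pair of sites lie at bases 1434 to 1440 and 3500 to 3506 of an untranslated region of 3747 bases. Of 21007 genes with a 3′ untranslated region, of median length 961 bases, 16% held the 7 bases. This share was not matched for length, and the region of Wisp1 was the longest of the 10. Ctgf, Thbs1 and Thbs2, with regions of 1608, 2104 and 2013 bases, held 0. The miRNA reference is RefSeq, GRCm38.p6.

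Total counts ran from 15647436 to 28340450 per library, and the 10 genes together took 0.292% to 0.401% of the counts in miR-27a KD libraries, 0.444% to 0.828% in KPC Scr libraries and 0.308% to 0.315% in sham libraries. On the first principal component of log2 CPM, which held 61.1% of the variance, KPC Scr libraries 1 and 3 lay at 115 and 92.0, KPC Scr library 2 at -12.3 and the other 5 between -47.7 and -32.3. Libraries 1 and 3 of the KPC Scr group stood apart from the rest, and values are given for each library and with KPC Scr library 2, or libraries 1 and 3, left out. Without libraries 1 and 3 KPC Scr is 1 library, assumed to vary like those of the other groups, so its p-values carry no spread of KPC Scr itself. Pdgfra, which marks FAPs, had 1449 to 1477 normalised CPM in miR-27a KD, 1519 to 1586 in KPC Scr and 1256 to 1588 in sham libraries. Of the 14 FAP markers, 9 had a negative and 5 a positive log2 change in KPC Scr against sham libraries. Of these 0 were called (edgeR), and the median was -0.71. Dcn was higher without overlap, with 24984, 19625 and 21059 normalised CPM in KPC Scr libraries, against 11101 and 14630 in sham libraries. Cd34 had 213, 1179 and 241 normalised CPM in KPC Scr libraries 1, 2 and 3, against 2250.3 and 2156 in sham libraries, and Col15a1 had 31.5, 364 and 26.4 in KPC Scr libraries, against 1567 and 963 in sham libraries. Pi16 had 295, 2305 and 189 in KPC Scr libraries, against 2722 and 2974 in sham libraries, and Ly6a, which encodes the SCA-1 used in the sort, had 451, 1136 and 436 in KPC Scr libraries, against 951 and 933 in sham libraries. Cd34, Col15a1, Pi16 and Ly6a were lowest in KPC Scr libraries 1 and 3, the libraries in which Ctgf, Thbs1 and Thbs2 were highest. The part of these FAP markers in the results was not tested. Normalised CPM are counts scaled to the library size times its TMM factor (CPM). The markers of mature adipocytes summed to 2.82 to 7.14 normalised CPM in miR-27a KD, 20.4 to 46.8 in KPC Scr and 1.14 to 3.79 in sham libraries. Most of each sum was Plin4, with 20.1, 18.8 and 41.1 normalised CPM in KPC Scr libraries. Adipoq was at most 0.882 in any library, and Lep was at 0 in all. Of the 7 markers 5 were tested and 1, Plin4, was called higher in KPC Scr against sham libraries (edgeR). Muscle fibre markers summed to 38.2 to 47.7 normalised CPM in miR-27a KD, 56.2 to 197 in KPC Scr and 25.9 to 49.7 in sham libraries. Of these 9 markers 8 were tested and 0 called. Both sums were higher in KPC Scr libraries than in any other. Of 10 pericyte and smooth muscle markers 8, and of 9 endothelial markers 8, had a positive log2 change in KPC Scr against sham libraries. The other 2 and 1 were negative, and 0 were called (edgeR). Their sums were 204 to 303 and 417 to 523 normalised CPM in KPC Scr, against 269 to 288 and 521 to 547 in sham libraries. Epithelial markers summed to 1.07 to 16.8 in KPC Scr and 4.46 to 7.15 in sham libraries. The part of any of these cell types in the results was not tested. Replicates are biological, per the labels.

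Per length of transcript, Ctgf led the 10 genes in KPC Scr libraries and Cyr61 led them in the other groups. Dividing normalised CPM by the exonic length in kilobases, Ctgf averaged 143 ± 37.6 CPM per kb in miR-27a KD, 555 ± 187 in KPC Scr and 87.2 ± 28.2 in sham libraries (SD, n = 3, 3 and 2), and it ranked 3, 1 and 5 among the 10. Cyr61 averaged 266 ± 47.4, 265 ± 32.9 and 267 ± 9.83 CPM per kb in the same groups, and it ranked 1, 4 and 1. In sham libraries the order by mean was Cyr61, Thbs4, Nov, Thbs3, Ctgf, Thbs2, Thbs1, Wisp2, Comp and Wisp1, from 267 to 0.382 CPM per kb. There, the library ranges of neighbours from Thbs3 to Ctgf, Ctgf to Thbs2, Thbs2 to Thbs1 and Wisp2 to Comp overlapped. Those of the other neighbours did not. These ranges compare 2 genes across libraries, not within each library. In KPC Scr libraries Ctgf, Thbs2, Thbs1 and Cyr61 led by mean, at 555, 283, 280 and 265 CPM per kb. The library range of each overlapped that of the next, though Ctgf lay above Thbs2 within every KPC Scr library. KPC Scr library 2 had another order, with Ctgf at 339, Cyr61 at 236, Thbs4 at 213, Thbs2 at 130 and Thbs1 at 86.3 CPM per kb. Wisp1 was the lowest member in every group.

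The comparison of KPC Scr with sham libraries asks how FAPs of tumour-bearing mice differ. Ctgf and Thbs2 rose, and no member fell. Thbs1 and Wisp2 lay above sham in every KPC Scr library without passing the test, Nov and Thbs3 lay below it, and Cyr61, Thbs4 and Comp overlapped sham. A gene was called when its adjusted p from edgeR's quasi-likelihood test, corrected by Benjamini and Hochberg over all 13646 genes, was under 0.05. That held for 2 of 10 members, both higher, where 1.58% of all genes tested were called, 1.10% higher and 0.476% lower. Groups did not overlap for 6 members, 4 higher and 2 lower, where 20.2% of all genes tested did not overlap and were higher and 20.8% lower. Without KPC Scr library 2, 6 of 10 members were called by edgeR, 4 higher and 2 lower, where 51.0% of all genes tested were. The median log2 change was -0.01 over the members and 0.00 over all genes tested.

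**Figure D1:**
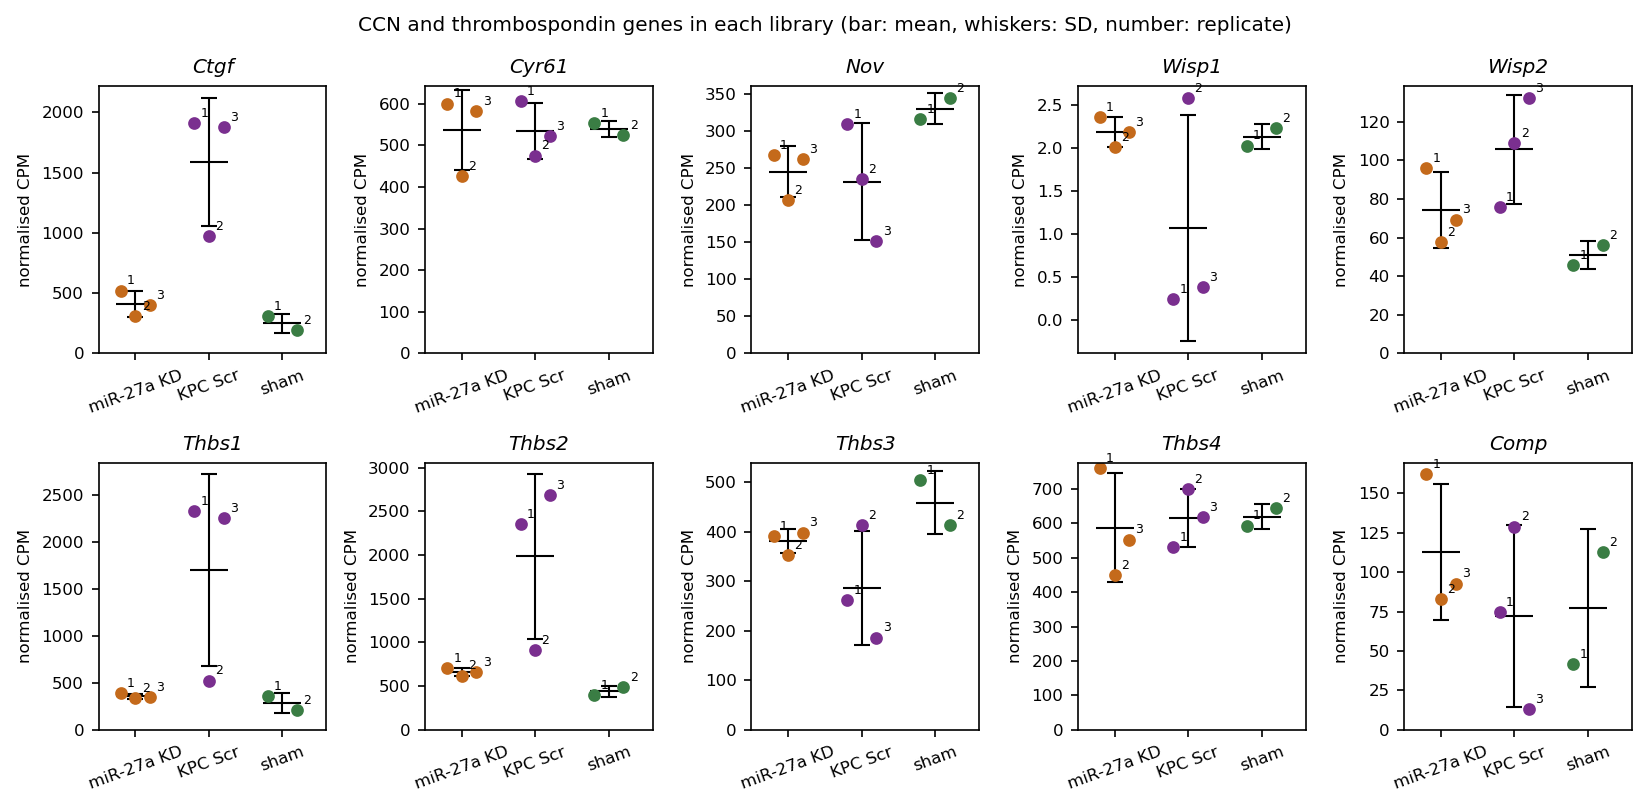
Normalised CPM (vertical axis, linear, one scale per gene) of the 10 genes in each library of the miR-27a KD, KPC Scr and sham groups; points are libraries with their replicate number, bars are means and whiskers are SDs. Ctgf, Thbs1 and Thbs2 are highest in KPC Scr libraries 1 and 3, with library 2 between them and sham, whereas Cyr61 and Thbs4 overlap across the groups.

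Ctgf, which encodes connective tissue growth factor, had 1911, 971 and 1879 normalised CPM in KPC Scr libraries 1, 2 and 3, against 307 and 193 in sham libraries 1 and 2. Every KPC Scr library lay above both sham libraries. It was 6.36-fold higher (log2 2.67 ± 0.40 SE; edgeR, adjusted p = 0.0236, rank 48 of all genes by p). The gene lies at chromosome 10, 24595442 to 24598683, on the plus strand (GRCm38, which is mm10; GENCODE M21), and an antisense transcript, Gm15270, overlaps it. The call was lost without sham library 1 or 2, KPC Scr library 1 or 3, or any single miR-27a KD library (log2 2.36 to 3.04; edgeR, adjusted p from 0.0517 to 0.220). With KPC Scr library 2 as the group's only library the log2 change was 1.96 ± 0.35.

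Cyr61, the close relative of Ctgf that shares its regulation by YAP in textbooks, had 607, 475 and 523 normalised CPM in KPC Scr libraries, against 553 and 525 in sham libraries. The groups overlapped, and the log2 change was -0.01 ± 0.21 (edgeR, adjusted p = 0.976). The log2 ratio of Ctgf to Cyr61 counts within a library, which needs no scaling between libraries, was 1.66, 1.03 and 1.85 in KPC Scr libraries and -0.85 and -1.45 in sham libraries. The groups' ratios did not overlap, with a mean difference of 2.66 on the log2 scale (exact permutation test, two-sided, p = 0.2, the smallest that 3 against 2 libraries allow).

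Wisp2, a CCN protein without the C-terminal cystine knot domain of the others, is a secreted product of mesenchymal cells. It had 75.9, 109 and 132 normalised CPM in KPC Scr libraries, against 45.7 and 56.2 in sham libraries. The groups did not overlap, and the log2 change was 1.05 ± 0.29 (edgeR, adjusted p = 0.0818). Nov, whose protein is often described as opposing Ctgf in fibrosis, had 309, 234 and 152 normalised CPM in KPC Scr libraries, against 316 and 345 in sham libraries. All 3 lay below sham, library 1 only just, and the log2 change was -0.51 ± 0.27 (edgeR, adjusted p = 0.234). Wisp1, a Wnt-induced member, rested on few reads, with 6, 61 and 6 counts in KPC Scr libraries 1, 2 and 3 and 32 and 40 in sham libraries, or 0.235, 2.58 and 0.378 normalised CPM in KPC Scr libraries, against 2.02 and 2.23 in sham libraries. Libraries 1 and 3 were low and library 2 was above both sham libraries, so the groups overlapped (log2 -0.94 ± 0.78; edgeR, adjusted p = 0.418). Without KPC Scr library 2 its log2 change was -2.84 ± 0.65 (edgeR, adjusted p = 0.00326), and with that library alone it was 0.27 ± 0.45. Wisp3, the remaining CCN gene, had 0 to 4 counts per library and was not tested.

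Among the trimeric thrombospondins, Thbs2 had 2356, 908 and 2687 normalised CPM in KPC Scr libraries 1, 2 and 3, against 393 and 487 in sham libraries. Each KPC Scr library was above sham, with libraries 1 and 3 more than library 2, and the fold was 4.51 (log2 2.17 ± 0.42; edgeR, adjusted p = 0.0452). Thbs2 lies at chromosome 17, 14665500 to 14694235, on the minus strand, with no annotated gene overlapping it. The call was lost when any single library other than KPC Scr library 2 was left out, controls included (log2 1.89 to 2.32; edgeR, adjusted p from 0.0989 to 0.399). With KPC Scr library 2 alone the log2 change was 1.05 ± 0.16, a smaller value than with all 3 libraries.

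Thbs1 had 2326, 524 and 2252 normalised CPM in KPC Scr libraries 1, 2 and 3, against 361 and 208 in sham libraries. Libraries 1 and 3 stood far above sham and library 2 closer to it, without overlap. The fold was 5.98, yet the call was missed (log2 2.58 ± 0.59; edgeR, adjusted p = 0.0599). Without KPC Scr library 2 the log2 change was 3.02 ± 0.23 (edgeR, adjusted p = 2.13e-06), and with it alone 0.88 ± 0.26. Thbs1 lies at chromosome 2, 118111876 to 118127133, on the plus strand, overlapped on the other strand by the non-coding Gm29233. Platelets carry much thrombospondin 1. The 7 platelet and megakaryocyte markers summed to 11.7 to 15.3 normalised CPM in KPC Scr and 15.1 to 22.4 in sham libraries. Itga2b made up most of each sum, and Pf4 was at most 1.07 in KPC Scr and 0.335 in sham libraries. The part of platelets in the values of Thbs1 was not tested.

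Of the pentameric members none was called. Thbs3 had 261, 413 and 186 normalised CPM in KPC Scr libraries, against 504 and 414 in sham libraries. Library 2 lay just under the lower sham library and libraries 1 and 3 well below it (log2 -0.68 ± 0.30; edgeR, adjusted p = 0.167). Without KPC Scr library 2 the change was -1.03 ± 0.18 (edgeR, adjusted p = 0.000678). Thbs3 lies at chromosome 3, 89215180 to 89226837, and overlaps Mtx1 on the opposite strand. The counting strand is not given. Reads from any stretch that Thbs3, Thbs1 or Ctgf shares with its antisense partner may therefore not be told apart in the counts. Thbs4 had 532, 699 and 618 normalised CPM in KPC Scr libraries, against 593 and 645 in sham libraries, with a log2 change of -0.01 ± 0.24 (edgeR, adjusted p = 0.987).

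Comp, cartilage oligomeric matrix protein, had 74.8, 129 and 13.0 normalised CPM in KPC Scr libraries, against 41.6 and 113 in sham libraries. The groups overlapped, with library 3 of KPC Scr the lowest of all (log2 -0.09 ± 0.75; edgeR, adjusted p = 0.939). Tendon markers varied beside it: Fmod had 152, 91.4 and 36.5 normalised CPM in KPC Scr libraries and 65.2 and 372 in sham libraries, and Tnmd had 1.96, 8.49 and 0.567 in KPC Scr libraries, against 4.18 and 15.2 in sham libraries. Of the 9 tenocyte markers, 6 had a negative log2 change and 0 were called. They summed to 3468 to 4212 normalised CPM in KPC Scr and 1779 to 3209 in sham libraries. Egr1, also an immediate early gene, made up most of each sum. It had 3328, 3151 and 4120 normalised CPM in KPC Scr libraries, against 1634 and 2645 in sham libraries. The sums therefore say little about the other tenocyte markers. Scx was at 0 in KPC Scr library 3, as was Kera. The 8 chondrocyte markers summed to 907 to 1827 normalised CPM in KPC Scr and 375 to 398 in sham libraries. Most of each sum was Prg4, with 1219, 878 and 1805 normalised CPM in KPC Scr and 340 and 298 in sham libraries. Of the 6 tested, 3 had a positive and 3 a negative log2 change. Prg4 was the 1 called, higher (log2 2.03 ± 0.35, edgeR, adjusted p = 0.0363). Chad lay the other way without overlap, with 2.94, 6.42 and 0.756 in KPC Scr libraries, against 12.1 and 68.5 in sham libraries. Acan and Col2a1 were at most 0.569 and 1.06 normalised CPM in any library. The part of tendon and cartilage cells in the values of Comp was not tested. In sorted bulk RNA fewer cells of a type and less RNA per cell cannot be told apart.

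The make-up of each family was computed within each library from levels per kb. Ctgf made up 59.9%, 47.5% and 63.3% of the summed CCN level per kb in KPC Scr libraries 1, 2 and 3, against 20.8% and 14.1% in sham libraries. Cyr61 made up 26.9%, 33.0% and 25.0% in KPC Scr libraries, against 53.2% and 54.5% in sham libraries. The CCN sum itself was 956 ± 213 CPM per kb in KPC Scr and 496 ± 27 in sham libraries (SD, n = 3 and 2). Thbs1 and Thbs2 together made up 74.9%, 38.7% and 76.6% of the thrombospondin sum in KPC Scr libraries, against 27.9% and 24.5% in sham libraries, while Thbs4 made up 16.8%, 38.1% and 19.1% in KPC Scr libraries, against 43.5% and 46.3% in sham libraries. None of these shares overlapped between the groups, and each exact permutation test gave p = 0.2 (two-sided), the smallest possible.

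**Figure D2:**
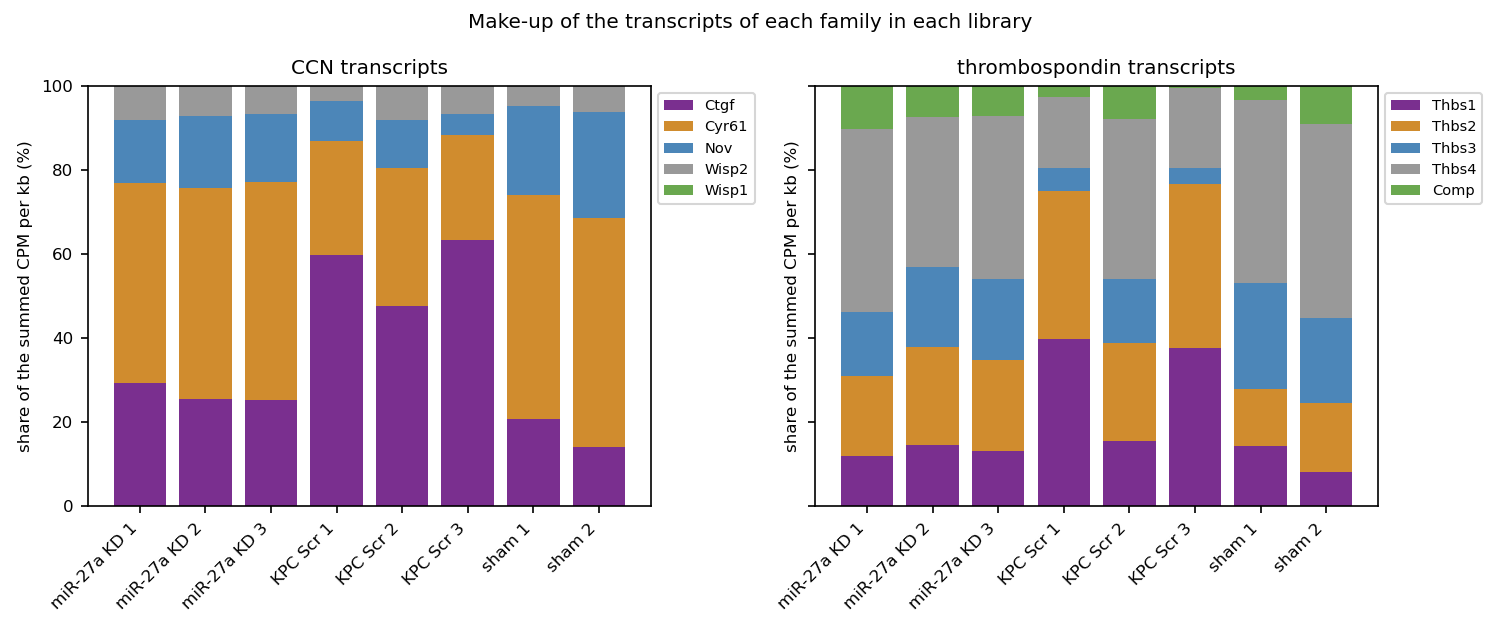
Share (vertical axis, percent) of each gene in the summed normalised CPM per kb of the 5 CCN genes (left) and the 5 thrombospondins (right), one stacked bar per library, in the order miR-27a KD, KPC Scr and sham. Ctgf takes 47.5% to 63.3% of the CCN bar in KPC Scr libraries and at most 29.2% elsewhere; in the thrombospondin bars, KPC Scr libraries 1 and 3 are mostly Thbs1 and Thbs2.

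The comparison of miR-27a KD with KPC Scr libraries asks whether inhibiting miR-27a-3p in tumour cells goes with a difference in FAPs. No member was called, where 0.0513% of all genes tested were, 0.0440% lower and 0.00733% higher (edgeR), and 3 members, Ctgf, Thbs1 and Thbs2, had an unadjusted p under 0.05 and groups that did not overlap. Unadjusted p under 0.05 held for 32.4% of all genes tested, and 16.7% had groups that did not overlap and were lower. DESeq2 called those 3 genes lower, and 17.4% of all genes with an adjusted p in either direction. Ctgf had 521, 306 and 401 normalised CPM in miR-27a KD libraries 1, 2 and 3, against 1911, 971 and 1879 in KPC Scr libraries (log2 -1.95 ± 0.33; edgeR, adjusted p = 0.061). Thbs1 had 387, 340 and 344 normalised CPM in miR-27a KD libraries, against 2326, 524 and 2252 in KPC Scr libraries (log2 -2.25 ± 0.49; edgeR, adjusted p = 0.0697). Thbs2 had 707, 620 and 661 normalised CPM in miR-27a KD libraries, against 2356, 908 and 2687 in KPC Scr libraries (log2 -1.58 ± 0.36; edgeR, adjusted p = 0.071). In all 3 genes every miR-27a KD library lay below every KPC Scr library, of which library 2 was the nearest.

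These differences depended on which KPC Scr libraries were used. Without KPC Scr library 2, 5 members were called: Ctgf at -2.22 ± 0.23, Thbs1 at -2.69 ± 0.20 and Thbs2 at -1.93 ± 0.15 were lower, and Wisp1 at 2.88 ± 0.59 and Thbs3 at 0.76 ± 0.17 were higher (edgeR, adjusted p from 1.4e-06 to 0.00258). That is 5 of 10 members, where 54.0% of all genes tested were called in the same fit. With KPC Scr library 2 as the only one, Ctgf stood at -1.25 ± 0.32, Thbs1 at -0.56 ± 0.24 and Thbs2 at -0.46 ± 0.15. The other members overlapped between the groups: Cyr61 had 601, 427 and 583 normalised CPM in miR-27a KD libraries, against 607, 475 and 523 in KPC Scr libraries (log2 0.01 ± 0.19), and Thbs4 had 760, 449 and 553 in miR-27a KD libraries, against 532, 699 and 618 in KPC Scr libraries (log2 -0.07 ± 0.22). Wisp2 averaged 74.3 ± 19.6 normalised CPM in miR-27a KD and 106 ± 28.3 in KPC Scr libraries, Nov 245 ± 33.9 in miR-27a KD and 232 ± 78.6 in KPC Scr libraries, and Comp 113 ± 43.2 in miR-27a KD and 72.2 ± 58.0 in KPC Scr libraries (SD, n = 3 each). Thbs3 had 391, 353 and 398 normalised CPM in miR-27a KD libraries, against 261, 413 and 186 in KPC Scr libraries, so that KPC Scr library 2 lay above all of them (log2 0.41 ± 0.27). Wisp1 had 2.36, 2.01 and 2.19 normalised CPM in miR-27a KD libraries, against 0.235, 2.58 and 0.378 in KPC Scr libraries, with library 2 again the highest (log2 0.98 ± 0.68). Ctgf made up 29.2%, 25.4% and 25.2% of the CCN sum per kb in miR-27a KD libraries, against 59.9%, 47.5% and 63.3% in KPC Scr libraries, without overlap (exact permutation test, two-sided, p = 0.1, the smallest that 3 against 3 libraries allow).

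**Figure D3:**
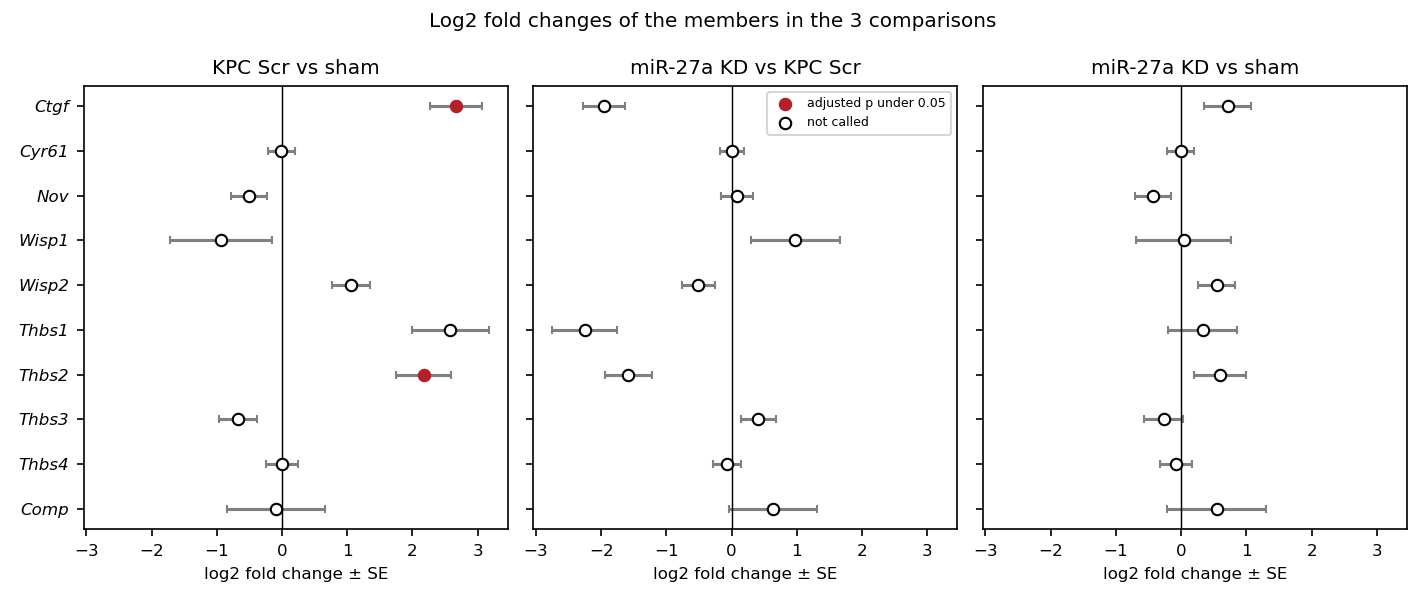
Log2 fold change (horizontal axis) with its standard error for the 10 genes in each of the 3 comparisons; filled points have an edgeR adjusted p under 0.05. Ctgf at 2.67 and Thbs2 at 2.17 in KPC Scr against sham are the filled points, and Ctgf, Thbs1 and Thbs2 lie at -1.95, -2.25 and -1.58 in miR-27a KD against KPC Scr.

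In miR-27a KD against sham libraries no member was called by edgeR or DESeq2, which called 0.00733% and 0.213% of all genes. By edgeR 0 members had an unadjusted p under 0.05, against 2.37% of all genes tested. Ctgf had 521, 306 and 401 normalised CPM in miR-27a KD libraries, against 307 and 193 in sham libraries, and overlapped narrowly (log2 0.71 ± 0.36; edgeR, adjusted p = 1). Thbs2 had 707, 620 and 661 normalised CPM in miR-27a KD libraries, against 393 and 487 in sham libraries (log2 0.59 ± 0.40). Wisp2 had 95.9, 57.7 and 69.4 normalised CPM in miR-27a KD libraries, against 45.7 and 56.2 in sham libraries (log2 0.55 ± 0.29). For both genes every miR-27a KD library lay above sham. Nov had 267, 206 and 262 normalised CPM in miR-27a KD libraries, against 316 and 345 in sham libraries, below without overlap (log2 -0.43 ± 0.28). Thbs3 had 391, 353 and 398 normalised CPM in miR-27a KD libraries, against 504 and 414 in sham libraries, likewise (log2 -0.27 ± 0.30). Groups did not overlap for 2 members that were higher and 2 that were lower, where 13.8% and 13.5% of all genes tested did so. Thbs1 had 387, 340 and 344 normalised CPM in miR-27a KD libraries, against 361 and 208 in sham libraries (log2 0.33 ± 0.53), so its libraries overlapped sham. This comparison shares its libraries with the other comparisons, so its values are not independent of theirs.

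Over the 8 libraries Ctgf, Thbs1 and Thbs2 varied together in log2 CPM: Pearson's r was 0.947 for Ctgf with Thbs1, 0.943 for Ctgf with Thbs2 and 0.959 for Thbs1 with Thbs2. Thbs3 varied against Thbs2 (r = -0.926), and Cyr61 showed little relation to Ctgf (r = 0.22). These values describe 8 libraries that share a table and its scaling, and KPC Scr libraries 1 and 3 lie at an end of most of them. The genes most like each member, among those with at least 5 CPM, were found by the same measure. For Ctgf they were Fam43a (r = 0.993), Adm (r = 0.987), which encodes adrenomedullin, and Asf1a (r = 0.986). For Thbs1 they were Nsun2, Tmem57 and Srfbp1 (r = 0.993 to 0.994), and for Thbs2 Mmd (r = 0.996), Lox (r = 0.993), which crosslinks collagen, and Pdk4 (r = 0.993). For Thbs3 they included Slc10a3 (r = 0.990) and Gstm5 (r = 0.984), and for Wisp2 Pde7a, Pcdhb16 and Plek. Cyr61 lay closest to Rad17, Exosc3 and U2surp, Nov to Lsm3, Mif4gd and Cstf2t, Thbs4 to Commd9, Tmem179b and Trp53rka, and Comp to Cse1l, Agmo and Cox6c. The 27 genes were chosen for their likeness over these same libraries, so their differences between the groups repeat those of the members and are not tested. Adm, for example, had 212, 137 and 203 normalised CPM in miR-27a KD libraries and 1579, 668 and 1328 in KPC Scr libraries, against 92.0 and 85.7 in sham libraries.

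Receptors, regulators and partners of the 10 genes were counted next, from lists of textbook members. Of 19 tested receptors of CCN proteins and thrombospondins, 2 rose and 1 fell in KPC Scr against sham libraries, with a median log2 change of -0.13 against 0.00 over all genes. For the counts of each list in this comparison, 1.58% of all genes tested were called by edgeR, 29.2% had an unadjusted p under 0.05, and DESeq2 called 15.9% of genes with an adjusted p. Among the receptors 7 had an unadjusted p under 0.05 and DESeq2 called 6. Cd36, the receptor through which Thbs1 and Thbs2 inhibit angiogenesis and also a fatty acid transporter, had 102, 63.2 and 126 normalised CPM in KPC Scr libraries, against 23.7 and 21.4 in sham libraries (log2 2.11 ± 0.32; edgeR, adjusted p = 0.0252). Sdc4, the heparan sulphate proteoglycan syndecan 4, had 494, 173 and 340.2 normalised CPM in KPC Scr libraries, against 85.1 and 85.8 in sham libraries (log2 1.97 ± 0.38; edgeR, adjusted p = 0.0441). Itga9, an integrin subunit, fell to 50.8, 73.3 and 47.4 normalised CPM in KPC Scr libraries, against 125 and 138 in sham libraries (log2 -1.21 ± 0.21; edgeR, adjusted p = 0.0368). Cd47, the other main thrombospondin receptor, stood at log2 -0.13 ± 0.21 and Itgav at -0.69 ± 0.19, neither called. In miR-27a KD against KPC Scr libraries 0 of the 19 were called by edgeR, with 8 at an unadjusted p under 0.05, against 32.4% of all genes, and 6 called by DESeq2, against 17.4%.

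Regulators and other targets of the pathways that control Ctgf and Cyr61 were counted in the same way. Of 20 tested genes of the Hippo pathway with YAP, TAZ and TEAD, 0 were called in KPC Scr against sham libraries by edgeR, 7 had an unadjusted p under 0.05, against 29.2% of all genes, and DESeq2 called 5, against 15.9%; the median log2 change was 0.35. Yap1, the co-activator itself, stood at log2 0.62 ± 0.19 and Tead3, one of its DNA-binding partners, at 0.73 ± 0.19 (edgeR, adjusted p = 0.0931 and 0.0731). Of 20 tested YAP and TEAD targets other than the members, 2 rose and 0 fell, with a median of 0.20; 8 had an unadjusted p under 0.05 and DESeq2 called 5, 4 higher and 1 lower. Fjx1, a secreted Fat and Dachsous pathway kinase relative, had 24.5, 14.3 and 17.8 normalised CPM in KPC Scr libraries, against 5.0 and 2.51 in sham libraries (log2 2.34 ± 0.45; edgeR, adjusted p = 0.0444). Gadd45a, a stress and DNA damage response gene, had 79.5, 69.6 and 86.9 normalised CPM in KPC Scr libraries, against 45 and 31.2 in sham libraries (log2 1.05 ± 0.20; edgeR, adjusted p = 0.0444). Both genes were above sham in every KPC Scr library. Igfbp3, an IGF-binding protein also induced by TGF-beta, had 14743, 552 and 12089 normalised CPM in KPC Scr libraries 1, 2 and 3, against 79.1 and 180 in sham libraries, and missed the call (log2 6.14 ± 1.26; edgeR, adjusted p = 0.052). Axl, a receptor tyrosine kinase, lay the other way, with 1200.0, 1750 and 1294 normalised CPM in KPC Scr libraries, against 2713 and 2411 in sham libraries (log2 -0.86 ± 0.22; edgeR, adjusted p = 0.0731).

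Of 22 tested TGF-beta and SMAD pathway genes, 0 were called in KPC Scr against sham libraries by edgeR, 9 had an unadjusted p under 0.05, against 29.2% of all genes, and DESeq2 called 4, against 15.9%; the median log2 change was -0.11. Tgif1, a homeobox co-repressor of SMAD-driven transcription, stood at log2 1.72 ± 0.41 (edgeR, adjusted p = 0.0646). Of 24 tested immediate early and serum response genes, the class to which Cyr61 belongs, 3 rose, 0 fell, and the median was 0.88. Of the 24, 18 had an unadjusted p under 0.05 and DESeq2 called 15, all higher, against 29.2% and 15.9% of all genes. Ier3 had 300.0, 213 and 275 normalised CPM in KPC Scr libraries, against 68.6 and 100.0 in sham libraries (log2 1.64 ± 0.24; edgeR, adjusted p = 0.022). Myc, the growth-promoting transcription factor, stood at 1.70 ± 0.27 and Fosl2, an AP-1 subunit, at 1.64 ± 0.32 (edgeR, adjusted p = 0.0265 and 0.0455). All 3 genes were higher in each KPC Scr library than in both sham libraries.

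Of 20 tested matrix partners of the thrombospondins and CCN proteins, 0 rose and 1 fell in KPC Scr against sham libraries, with a median log2 change of -0.83; 10 had an unadjusted p under 0.05 and DESeq2 called 7, 3 higher and 4 lower. Of the 20, 8 had a positive and 12 a negative log2 change. Adamts12, a secreted protease that cleaves Comp, fell to 38.2, 62.0 and 33.0 normalised CPM in KPC Scr libraries, against 124 and 116 in sham libraries (log2 -1.43 ± 0.27; edgeR, adjusted p = 0.0419). Adamts7 and Adamts1 of the same list lay the other way, at log2 1.44 ± 0.48 and 0.76 ± 0.23, neither called (edgeR, adjusted p = 0.11 and 0.0919). Vcan, the proteoglycan versican, stood at -1.51 ± 0.32 (edgeR, adjusted p = 0.0539). In each of these lists, 0 genes were called by edgeR in miR-27a KD against KPC Scr or against sham libraries. Of all genes tested, 0.0513% and 0.00733% were called there. Median log2 changes in miR-27a KD against KPC Scr were 0.28 for receptors, -0.28 for Hippo genes and -0.01 for YAP and TEAD targets. They were 0.08 for TGF-beta genes, -0.52 for immediate early genes and 0.80 for matrix partners, against 0.01 over all genes tested. In miR-27a KD against KPC Scr libraries, Fjx1 stood at log2 -2.04 ± 0.37, Ier3 at -1.09 ± 0.20 and Adamts12 at 1.43 ± 0.25, each with groups that did not overlap (edgeR, adjusted p = 0.061 for all 3). The calls in these lists rested on few libraries. Without either sham library, KPC Scr library 3 or any single miR-27a KD library, 0 genes of any list were called in KPC Scr against sham; without KPC Scr library 1, 1 was called, and without KPC Scr library 2 between 9 and 19 per list were, where 51.0% of all genes tested were called (edgeR).

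**Figure D4:**
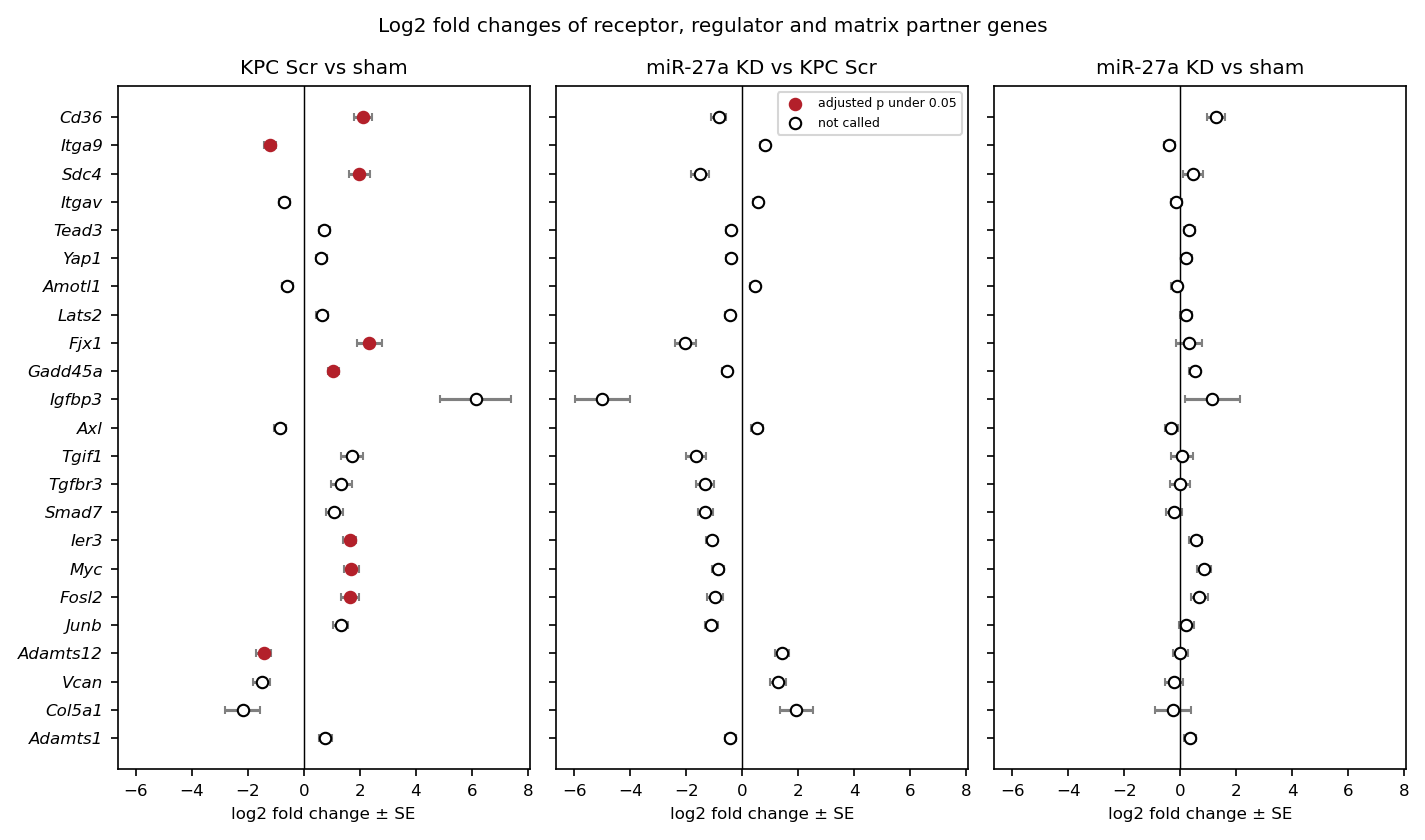
Log2 fold change with its standard error (horizontal axis) in each of the 3 comparisons for 3 or 4 genes among those of lowest p in KPC Scr against sham from each of 6 lists, top to bottom receptors, Hippo pathway, YAP and TEAD targets, TGF-beta pathway, immediate early genes and matrix partners; filled points have an edgeR adjusted p under 0.05. Cd36, Itga9, Sdc4, Fjx1, Gadd45a, Ier3, Myc, Fosl2 and Adamts12 are filled in KPC Scr against sham, and no point is filled in the other comparisons.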

How the data were processed

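Raw gene counts of 8 RNA-seq libraries were deposited by the authors as 1 table. Per the labels' protocols, poly(A) RNA was made into stranded mRNA libraries and read on an Illumina NextSeq instrument; the submitters' processing notes name, with no role for any, R 4.2.1, DESeq2 1.36.0, STAR, Bowtie, bcl2fastq 2.20 and the build mm10. Which counter, annotation and strand setting were used is not given in the sources used here.

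From these counts, edgeR 4.0.16 (R 4.3.3) was run with filterByExpr, TMM factors and 3 group means over all 8 libraries, by the robust quasi-likelihood test with Benjamini-Hochberg adjustment over all 13646 genes and a threshold of 0.05. An SE is the absolute log2 change over the square root of F. The test was tried on counts simulated from its own fitted dispersions, with no split within a group like that of the KPC Scr libraries. That trial cannot show how the test behaves with such a split. DESeq2 1.42.0, RLE factors, no filter, only the groups compared, a replicate block and libraries left out were alternatives. Likeness was Pearson's r of log2 CPM (prior count 2) among genes averaging at least 5 CPM, and the 3 closest genes per member were named. All 10 members were named, and from each list the 4 genes of lowest p were eligible. Cd47, Adamts7 and the single cell type markers printed were picked after their values were seen. A few genes that these rules select are not reported here. Members and lists were chosen with earlier results of these data known.

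A p-value from edgeR sets a difference between groups against the spread between these libraries, pooled over the groups. It covers no variation between tumour cell lines, and the labels give no collection batch. Intervals of counting error were not used. Gene coordinates are from GENCODE M21 and promoters and the miRNA from RefSeq, both on GRCm38.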

Additional observations from a re-analysis of the deposited data

How the results depend on the processing

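Each comparison was repeated under 14 alternatives. Of the members' log2 changes, 101 of 140 in KPC Scr against sham, 118 of 140 in miR-27a KD against KPC Scr and 133 of 140 in miR-27a KD against sham libraries kept their direction and side of the threshold; 16, 14 and 7 changed direction, none of them a called value. The number of members called in KPC Scr against sham libraries was 4 with DESeq2, 0 with only the groups compared and 0 to 6 with 1 library left out, against 2; in miR-27a KD against KPC Scr it was 3 with DESeq2 and 0 to 5 with 1 library left out, against 0; in miR-27a KD against sham it was 0 throughout. All genes called in KPC Scr against sham numbered 215, and 2078 with DESeq2, 4 with only the groups compared, 493 without KPC Scr libraries 1 and 3, and 0 to 6908 with 1 library left out. In miR-27a KD against KPC Scr they numbered 7, and 2320, 0, 100 and 0 to 7313 under the same settings, with 11 without the low-count filter. In miR-27a KD against sham they numbered 1, and 25, 101, 103 and 0 to 32, with 2 without the filter. Without KPC Scr libraries 1 and 3 the log2 change was 0.27 for Wisp1, 0.18 for Thbs4 and 0.74 for Comp in KPC Scr against sham, and -0.24 for Wisp1, -0.12 for Thbs3 and -0.20 for Comp in miR-27a KD against KPC Scr. With DESeq2 and with RLE factors it was 0.0052 for Cyr61 in both and 0.0060 and 0.0059 for Thbs4 in KPC Scr against sham, and -0.015 for Cyr61 in both in miR-27a KD against KPC Scr, which was -0.00024 with only the groups compared. With 1 library left out, KPC Scr against sham ran from -0.11 to 0.075 for Cyr61, -0.10 to 0.090 for Thbs4 and -0.77 to 0.80 for Comp, positive for Comp without sham library 2 or KPC Scr library 3. For miR-27a KD against KPC Scr it ran from -0.082 to 0.15 for Cyr61, -0.15 to 0.34 for Nov and -0.30 to 0.091 for Thbs4. For miR-27a KD against sham it ran from -0.095 to 0.13 for Cyr61, -0.031 to 0.11 for Wisp1, -0.017 to 0.78 for Thbs1, -0.31 to 0.082 for Thbs4 and -0.0036 to 1.44 for Comp. The cause was not tested.

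Deviations from the group means correlated at -0.06 to 0.17 over 7 pairs of same-numbered libraries, against -0.15 to 0.07 over 14 others. Such deviations are tied to each other in groups this small, so they cannot decide whether replicate numbers pair the libraries. With a replicate block, 1 member and 16 genes were called in KPC Scr against sham, and 0 members and 0 genes in either miR-27a KD comparison. In that fit the log2 change in KPC Scr against sham was 0.015 for Thbs4 and 0.14 for Comp, and -0.0020 for Cyr61 in miR-27a KD against KPC Scr. Sham had 2 libraries, which limits every comparison with it.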
